A study of Bos taurus with 14 samples.

Results

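The genes described here encode the nuclear subunits of respiratory complexes II, III, IV and V of the mitochondrion, together with cytochrome c. They were taken from the deposited count table by symbol: SDHA, SDHB, SDHC and SDHD, every symbol starting with UQCR, CYC1, CYCS, every symbol starting with COX4 to COX8, and every symbol starting with ATP5. This gave 46 genes among 17885 rows with any read: 4 of complex II, 9 of complex III (CYC1 included), 1 cytochrome c, 14 of complex IV and 18 of complex V. Of these, 44 had enough reads to be tested between diets, and COX6B2 and COX7B2 did not.

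RNA came from the longissimus dorsi, a long back muscle, of 14 female cattle (Bos taurus) slaughtered at postnatal day 485. The 7 control animals were born to dams fed 100% of their nutrient requirement from gestation day 158 until calving. The dams of the other 7, called restricted, were fed less over that span, and the labels give their level both as 70% and as 50%. After birth all animals were kept alike, with ad libitum feed from day 301. Breed, and whether animals had a parent in common, are not given in the labels. Each sample was read as 1 animal, and p-values measure the spread between these animals.

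The respiratory chain takes electrons from nutrients and passes them to oxygen. Complex II (succinate dehydrogenase) is also an enzyme of the citric acid cycle and hands electrons to ubiquinone, complex III (cytochrome bc1) moves them on to cytochrome c, and complex IV (cytochrome c oxidase) gives them to oxygen. Complexes III and IV pump protons, and complex V (ATP synthase) uses the proton gradient to make ATP. Nuclear genes encode all subunits of complex II and most of the others, while a few core subunits come from mitochondrial DNA and were not analysed here. In cow muscle several complex IV subunits exist in a heart and skeletal muscle form beside a general form, among them COX7A1 beside COX7A2 and COX8B beside COX8A.

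Libraries held between 13631018 and 17325779 counts. The tissue label matched its markers: the 10 muscle fibre markers found, from ACTA1 to MYL2, summed to between 136000 and 188700 CPM in every animal, where CPM is counts per 1000000 counts of the scaled library. Summed markers of other cells were far lower, at 10.66 to 167.6 CPM for adipocytes, 148.4 to 249.0 CPM for smooth muscle and pericytes, 110.8 to 196.0 CPM for endothelium, 182.4 to 411.6 CPM for fibroblasts, 1.894 to 7.679 CPM for macrophages and 0.204 to 19.84 CPM for erythroid cells, of whose 3 markers HBA and ALAS2 were at 0 in some animals. In bulk muscle, fewer cells of a type and less RNA per cell cannot be told apart.

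The 44 tested genes took 1.09% ± 0.097 (SD, n = 14) of all counts. The share was lowest in restricted animal 2, at 0.941%, and highest in restricted animal 1, at 1.36%. Complex V took 0.545% ± 0.0516, complex III 0.203% ± 0.0189, complex IV (12 tested genes) 0.170% ± 0.0151, complex II 0.148% ± 0.0122 and cytochrome c 0.0242% ± 0.0053 (SD, n = 14). These shares grow with the number and length of the genes, so genes were compared with each other only as CPM per kilobase of the gene length that the table gives.

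On that per-length scale the 44 tested genes had a median of 220.6 CPM per kilobase. All but COX4I2, COX6A1, COX7A2, COX7A2L and COX8A had means between 65.4 and 721 CPM per kilobase. The catalytic β subunit of ATP synthase, ATP5F1B, was the most abundant, at 721 CPM per kilobase (mean, n = 14), followed by UQCRB at 584 and the α subunit ATP5F1A at 497 CPM per kilobase. The plot of levels per length shows complex II as the most even group, with the 4 gene means between 217.1 and 251.1 CPM per kilobase.

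**Figure D1:**
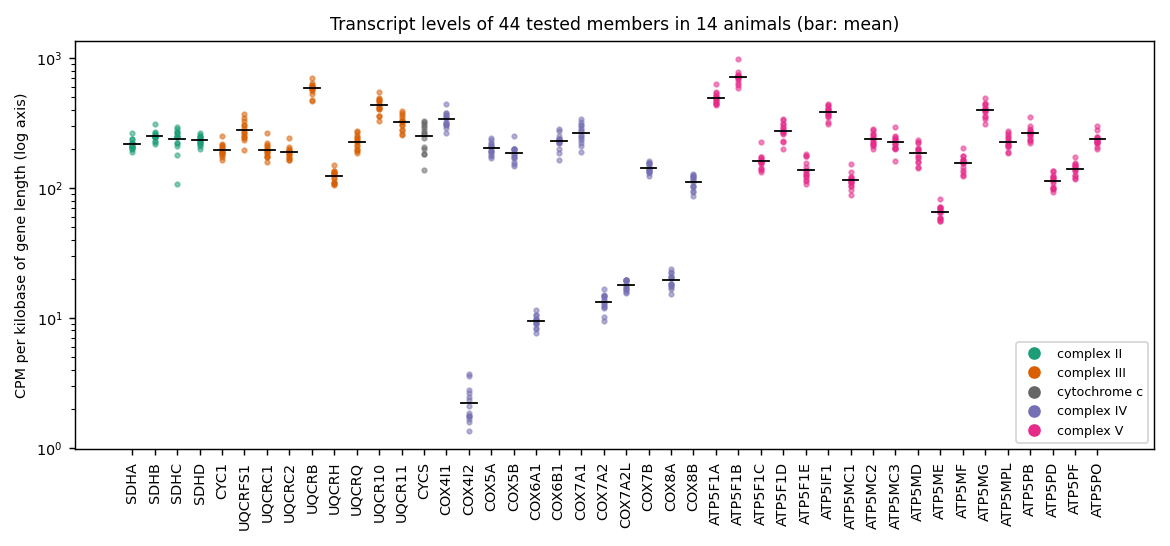
Levels of the 44 tested genes in CPM per kilobase of gene length (log axis), 1 point per animal (n = 14) and a bar at the mean, coloured by complex. ATP5F1B is highest at 721 CPM per kilobase, and COX4I2, COX6A1, COX7A2, COX7A2L and COX8A lie below 20 CPM per kilobase at the mean.

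Levels of complex II genes were close to equal in both diets. SDHA, the flavoprotein that oxidises succinate, ran in controls from 465.9 through a median of 550.4 to 594.7 CPM and in restricted animals from 496.4 through 517.9 to 661.8 CPM. The groups overlapped and the fitted ratio, restricted over control, was 1.0 (95% interval 0.892 to 1.12). SDHB, the iron-sulfur subunit, had 332.7 ± 40.2 CPM in controls and 322.6 ± 13.2 CPM in restricted animals (SD, n = 7 each), with a ratio of 0.969 (0.870 to 1.08). It varied less among restricted animals, from 299.6 to 343.5 CPM, than among controls, from 284.2 to 407.3 CPM, and that difference in spread was not tested.

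SDHC and SDHD anchor the complex in the membrane. SDHC stood apart in control animal 4, at 141.8 CPM, while the other 13 animals lay between 237.4 and 389.0 CPM. SDHD was even, from 263.8 to 348.4 CPM over the 14 animals. Control animal 4 was not low for SDHD, and the correlation of SDHC with SDHD over the 14 animals was r = 0.10, given as a description. The ratio between diets for SDHC was 1.0 with an interval of 0.786 to 1.28. Leaving out control animal 4 gave a log2 fold change of -0.12 in place of 0.004.

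In complex III the electron path runs through CYC1 (cytochrome c1) and UQCRFS1 (the Rieske iron-sulfur protein). CYC1 had 238.4 ± 26.1 CPM in controls and 240.1 ± 31.0 CPM in restricted animals (SD, n = 7 each), a ratio of 1.01 (0.884 to 1.15). UQCRFS1 had the largest SD of log2 CPM in its complex, from 230.0 CPM in control animal 2 to 434.4 CPM in control animal 1, both controls. Its restricted values, 273.3 to 400.1 CPM, lay within that range.

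UQCRC1 and UQCRC2, the large core subunits, had nearly equal levels per length, 196.4 and 189.3 CPM per kilobase (mean, n = 14). UQCRC2 ran from 267.1 through 304.8 to 338.1 CPM in controls and from 278.4 through 316.1 to 399.4 CPM in restricted animals. The small subunits differed more from each other: UQCRB, near the ubiquinone site, had 584.1 CPM per kilobase and UQCRH, the hinge protein at the contact with cytochrome c1, 122.7 CPM per kilobase. UQCRH had the smallest p of complex III between diets (ratio 1.08, 0.955 to 1.22; unadjusted p = 0.204, adjusted p = 1.0, edgeR's quasi-likelihood test).

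CYCS, the somatic cytochrome c gene, varied widely between animals. In controls it ran from 134.5 through 200.5 to 312.5 CPM and in restricted animals from 178.6 through 257.1 to 316.6 CPM. The lowest value was in control animal 6 and the highest in restricted animal 1, a span of 2.35-fold. Its SD of log2 CPM over the 14 animals was above that of 95.3% of tested genes of like level, meaning a mean CPM within a factor of 2. Its ratio between diets was 1.15 (0.9 to 1.47), the largest of the 44, and edgeR's quasi-likelihood test gave an adjusted p of 1.0. The log2 fold change of 0.20 was 0.11 without control animal 6, below the 0.19 of ATP5MC3 in that fit, and 0.30 without control animal 5.

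Complex IV held the widest range of levels. COX4I1, the general form of the subunit that carries regulatory nucleotide sites, was its most abundant member at 338.3 CPM per kilobase, and COX7A1 followed at 266.3 CPM per kilobase. COX5A and COX5B, which have no listed alternative form, stood at 202.7 and 184.9 CPM per kilobase. COX4I2, a form best known from lung, stood at 2.23 CPM per kilobase, and the ratio of COX4I1 to COX4I2 per length was 164 ± 47.2 (SD, n = 14). COX4I2 rested on 25 to 68 reads per animal.

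For subunit VIIa the muscle form dominated in every animal. COX7A1 had 99.7 to 180.2 CPM in controls (median 143.4) and 110.7 to 169.6 CPM in restricted animals (median 133.0). COX7A2 had 5.54 to 8.11 CPM in controls (median 6.96) and 5.16 to 9.17 CPM in restricted animals (median 7.67). The reads ratio COX7A1 over COX7A2 was 19.6 ± 4.0 (SD, n = 14), from 13.4 in restricted animal 7 to 29.0 in control animal 1. Per length it was 20.5 ± 4.16, so COX7A1 made up 93.3% to 96.8% of the pair.

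Subunit VIII showed the same order with a smaller margin. COX8B, the muscle form, ran from 130.2 through 155.8 to 171.4 CPM in controls and from 122.3 through 162.3 to 178.7 CPM in restricted animals. COX8A, the general form, ran from 9.95 through 12.0 to 15.6 CPM in controls and from 10.8 through 13.4 to 14.4 CPM in restricted animals. The reads ratio COX8B over COX8A was 12.3 ± 1.93 (SD, n = 14), between 9.94 in control animal 4 and 17.2 in control animal 5. Because the COX8B gene model is longer, the ratio per length was 5.73 ± 0.897, a COX8B share of 82.2% to 88.9%.

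Neither isoform ratio differed detectably between diets. The log2 ratio of COX7A1 to COX7A2 was 4.28 ± 0.32 in controls and 4.21 ± 0.26 in restricted animals (SD, n = 7 each), a difference of -0.07 with a 95% interval of -0.41 to 0.27. The exact permutation p (two-sided, every assignment of animals enumerated) was 0.671, or 0.84 after Benjamini-Hochberg adjustment over the 2 pairs. For COX8B over COX8A the difference was 0.02 (-0.23 to 0.27; exact permutation p = 0.84, adjusted 0.84). On the linear scale the intervals of these differences between diets were 0.752 to 1.21 and 0.85 to 1.2. The smallest p this design allows is 0.000583.

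**Figure D2:**
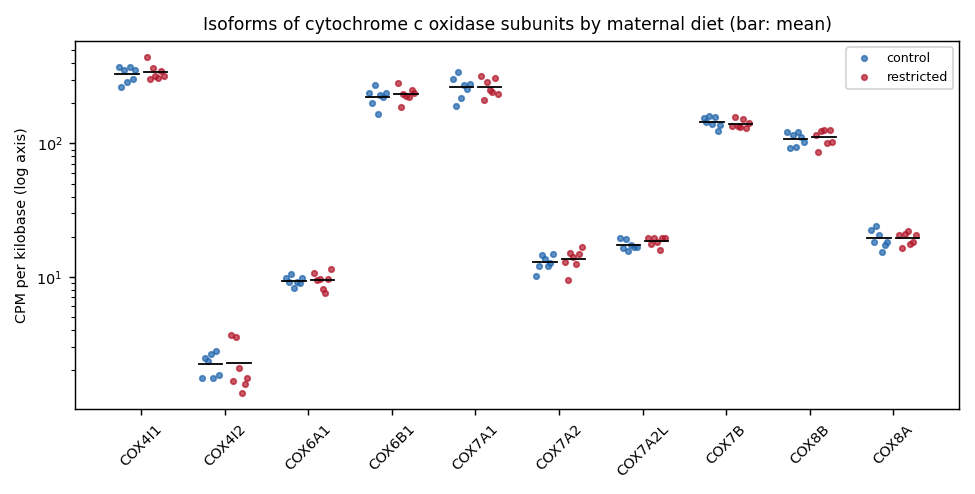
Levels of complex IV isoforms in CPM per kilobase (log axis), 1 point per animal, with controls in blue, restricted animals in red (n = 7 each) and a bar at each mean. COX7A1 lies above COX7A2, and COX8B above COX8A, in all 14 animals, and the diet groups overlap for each gene.

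COX6A1, the general form of subunit VIa, stood at 9.44 CPM per kilobase, from 7.62 to 11.54 CPM over all animals. Its muscle counterpart COX6A2, and the single-form subunits COX6C and COX7C under those symbols, were not analysed here as members. COX7A2L, a relative of the VIIa subunits that takes part in joining complexes III and IV, had 25.3 ± 2.11 CPM in controls and 27.1 ± 2.07 CPM in restricted animals (SD, n = 7 each), a ratio of 1.07 (0.964 to 1.19). COX7B, a small subunit needed for assembly, was even between animals, from 156.1 to 203.3 CPM. The general forms have near copies in mammalian genomes, and how reads with several alignments were counted is not given in the sources used here, so the low levels of COX6A1, COX7A2 and COX8A, and the ratios built on them, are uncertain to that extent.

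Both members below the filter are forms best known from testis. COX6B2 had 1 read in each of 2 animals, control 4 and control 6, and 0 in the other 12. COX7B2 had 41 reads in restricted animal 3, 5 in restricted animal 6, 1 each in control animal 4 and restricted animal 1, and 0 in the others. These counts allow no comparison between diets. A count of 0 allows up to 3 reads, which is 0.173 to 0.220 CPM unscaled at these depths and covers counting error only.

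In complex V the F1 head, where ATP is made, had the highest levels. ATP5F1B ran from 1133 through 1396 to 1504 CPM in controls and from 1197 through 1383 to 1883 CPM in restricted animals. ATP5F1A ran from 1042 through 1154 to 1289 CPM and from 1032 through 1135 to 1500 CPM. The groups overlapped for both, with restricted animal 1 highest for each. Per length, ATP5F1B exceeded ATP5F1A 1.45 ± 0.077 times and the central stalk subunit ATP5F1C 4.52 ± 0.302 times (SD, n = 14), while the assembled enzyme holds equal numbers of α and β and a single γ. ATP5F1E, the small ε subunit, had 61.9 to 105.3 CPM.

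The inhibitor ATP5IF1, which blocks the reverse reaction, was itself abundant, at 384.3 CPM per kilobase. It had 219.2 ± 27.4 CPM in controls and 222.8 ± 20.7 CPM in restricted animals (SD, n = 7 each), a ratio of 1.02 (0.896 to 1.15). The membrane ring of complex V is built from an identical protein encoded at 3 genes that differ in the import signal. Per length, ATP5MC2 gave 41.5% ± 2.64, ATP5MC3 38.7% ± 2.30 and ATP5MC1 19.7% ± 0.966 of their sum (SD, n = 14). ATP5MC1 was the lowest of them in every animal, between 18.3% and 21.8%. ATP5MC2 ran from 37.5% to 45.4% and ATP5MC3 from 34.6% to 42.6%, and ATP5MC3 was above ATP5MC2 in control animal 5 and restricted animals 1, 5 and 7.

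ATP5MC3 had the smallest diet p of the 44 genes. Its controls ran from 168.0 through 213.9 to 258.4 CPM and its restricted values from 214.4 through 251.6 to 310.0 CPM. All 7 restricted animals lay above the control median, yet the groups overlapped. The means were 219.5 ± 29.3 and 250.8 ± 31.2 CPM (SD, n = 7 each), a ratio of 1.14 (0.993 to 1.32; log2 fold change 0.19 ± 0.10, SE). In edgeR's quasi-likelihood test the unadjusted p was 0.0618 and the adjusted p over 12187 genes 1.0.

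Between diets, 0 of the 44 genes passed an adjusted p of 0.05 in edgeR's quasi-likelihood test, against 0.0% of the 12187 genes tested. At an unadjusted p under 0.05 the count was 0 of 44, against 4.25% (518) of all tested genes. DESeq2 called 0 of the 44 and 1 gene in the whole table, and limma voom called 0 of either. The groups overlapped for all 44 genes, and every one of the 44 ratios had a 95% interval inside 1.5-fold in both directions. A ratio beyond 1.1 was found for 3 genes: CYCS (1.15), ATP5MC3 (1.14) and ATP5F1C (1.11). The shares of all tested genes with such overlap, intervals or ratios are not given here, so these counts describe the 44 genes alone.

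The fitted log2 fold change was above 0 for 37 of the 44 genes, against 49.7% of all tested genes. The median log2 fold change was 0.05 (ratio 1.04) beside -0.0008 over all tested genes. By complex it was above 0 for 3 of 4 genes in complex II, 7 of 9 in III, 10 of 12 in IV and 16 of 18 in V, and for CYCS. Marker lists also leaned by diet, with 0 genes passing: the log2 fold change was above 0 for 6 of 6 fast fibre, 7 of 10 muscle fibre and 3 of 7 slow fibre markers. It was above 0 for 0 of 4 endothelial, 1 of 6 smooth muscle and pericyte, 1 of 5 adipocyte, 2 of 4 fibroblast and 1 of 3 macrophage markers, and for HBB, the only erythroid marker tested. Their part in the lean of the 44 genes was not tested, and most of the muscle fibre markers are also in the fast or slow fibre list. The genes share their animals, so these counts are not independent. They also rest on the scaling and on 1 animal. With library size alone 23 of 44 were above 0, but the median log2 fold change over all tested genes fell too, to -0.05. That of the 44 genes was 0.0084 and stayed above it. The share of all tested genes above 0 under that scaling is not given here. Without restricted animal 1, 24 of 44 were above 0 (median 0.0097, beside -0.0008 over all tested genes).

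**Figure D3:**
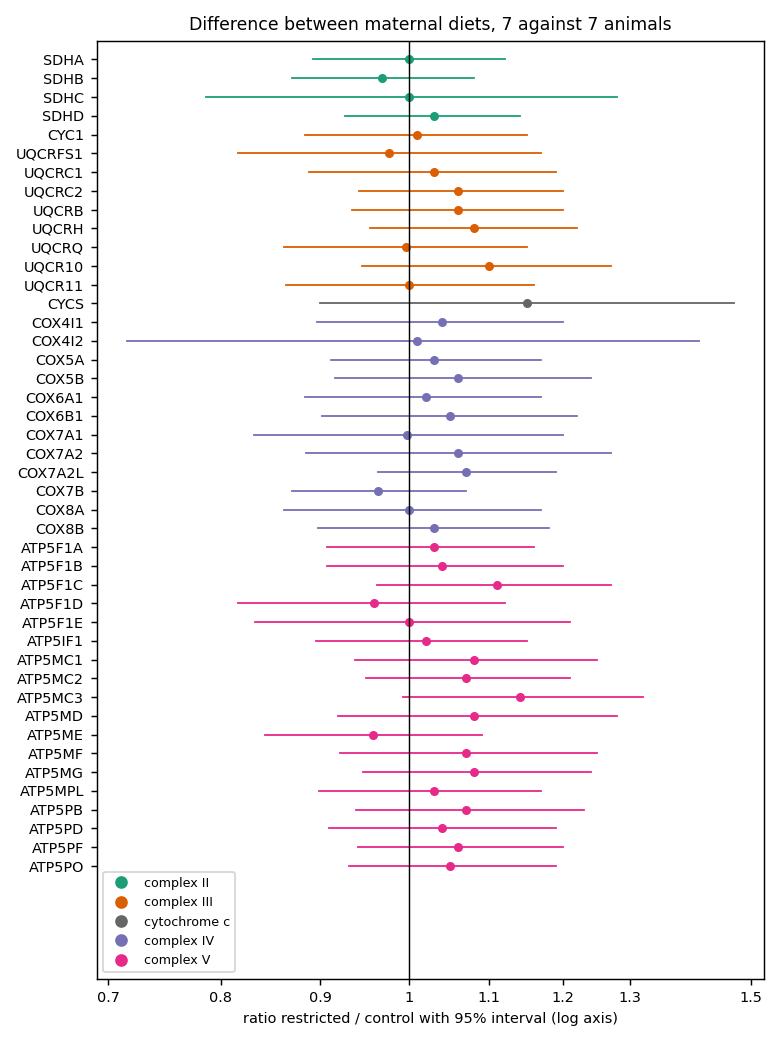
Ratio of restricted to control (log axis) with its 95% interval for each of the 44 tested genes, from 7 against 7 animals, coloured by complex. Points lie between 0.958 and 1.15, and every interval includes 1.

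The mean log2 CPM over a complex's tested genes gave 1 value per animal. For complex V it was 7.62 ± 0.15 in controls and 7.69 ± 0.14 in restricted animals (SD, n = 7 each), a difference of 0.07. For complexes II, III and IV the differences were 0.01, 0.05 and 0.03, with SDs over the 14 animals of 0.15, 0.15 and 0.13. Each difference was smaller than 1 SD between animals. Without restricted animal 1 the differences were 0.0009 for complex III, -0.0034 for complex IV and 0.03 for complex V, and that for complex II was -0.05 without control animal 4. Among animals whose title ends in A, a letter the labels do not explain, they were -0.11, -0.06, -0.02 and 0.0022 for complexes II to V.

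Levels spread between animals in each complex. From the lowest to the highest animal the mean level spanned 1.51-fold for complex II, 1.47-fold for III, 1.34-fold for IV and 1.44-fold for V. Over the 7 complex IV genes at 100 CPM or more the span was 1.41-fold. Restricted animal 1 was highest for each complex and for 27 of the 44 genes. Control animal 2 was lowest for 15 genes and control animal 4 for 13. The map of deviations shows these as columns mostly of 1 colour. The titles of restricted animal 1 and control animals 2 and 4 end in B, a letter the labels do not explain. So do those of restricted animals 2 and 7, which ranked 3 and 6 from the low end by the mean of the 44 genes. The part of this letter in the levels was not tested.

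**Figure D4:**
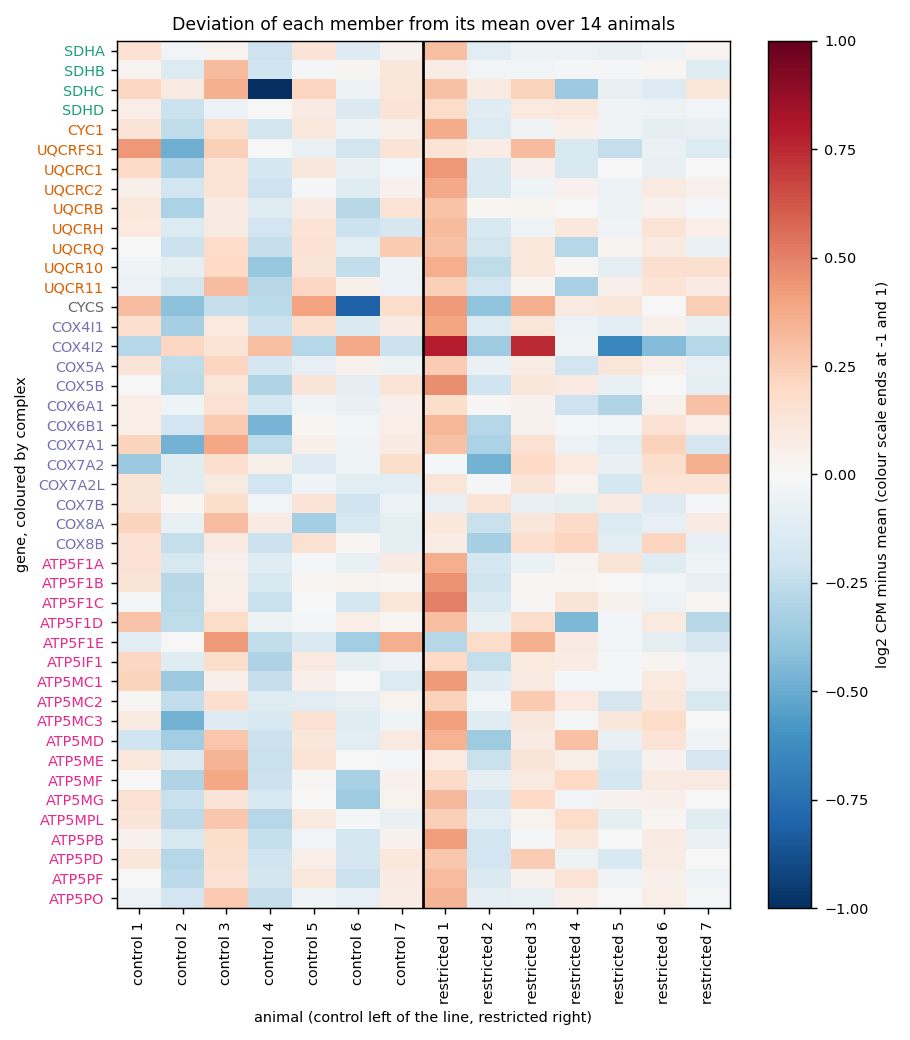
Deviation of log2 CPM from each gene's mean over 14 animals, genes in rows (names coloured by complex) and animals in columns, controls left of the line. Restricted animal 1 is above the mean for most genes and control animals 2 and 4 below it, and SDHC in control animal 4 is past the end of the colour scale.

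Part of this order moved with the scaling factors. Control animal 2 had the largest factor, 1.11, and control animal 4 the next, 1.06. With library size alone, control animal 2 took rank 5 from the low end, control animal 4 rank 2 and restricted animal 2 rank 1, while restricted animal 1, with a factor of 0.999, was again highest. Fibre markers moved with some animals and not with others. Control animal 2 had the lowest summed slow fibre markers (19450 CPM), fast fibre markers (98690 CPM) and muscle fibre markers (136000 CPM) of the 14. These sums, and the marker ranks that follow, carry the same scaling factors, and their order with library size alone is not given here. Control animal 4 ranked 10 from the low end by mean log2 CPM for slow fibre markers and 2 for fast ones, and restricted animal 1 ranked 13 and 7. Restricted animal 2, at rank 3 for the scaled mean of the 44 genes, ranked 5 for slow and 13 for fast markers. Control animal 3, at rank 13 for the 44 genes, ranked 7 and 6. The part of the fibre markers in the levels of the 44 genes was not tested.

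Over the 14 animals the genes moved together. The median Pearson r over the 946 pairs of the 44 genes was 0.59, and 96.3% of pairs were above 0, beside a median of -0.02 between these genes and the other tested genes. These are descriptions over animals that share library scaling, with no p. Pairs in the same complex had a median r of 0.66 and pairs in different complexes 0.57. Library size alone lowered these to 0.57 and 0.47, and leaving out restricted animal 1 to 0.57 and 0.51.

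Complexes III and V were the tightest, with medians of 0.69 and 0.70 within each and 0.69 between them. The closest pair of all crossed this line: UQCRC2, a core subunit of III, with ATP5PB, a peripheral stalk subunit of V, at r = 0.96. ATP5F1A and ATP5F1B, partners in the F1 head, had r = 0.89. Complex II had a median of 0.49 over its 6 pairs, and SDHA with SDHB gave 0.41.

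Complex IV was the loosest, with a median of 0.33 over 66 pairs, and the plot of covariation shows where. COX4I1, COX5B, COX6B1 and COX7A1 followed the other genes closely, with a median r of 0.745 for COX7A1. COX7B (0.05), COX4I2 (0.17), COX7A2 (0.21), COX8A (0.33) and COX6A1 (0.35) did so less, and ATP5F1E (0.14) was the low one in complex V. COX4I2, COX7A2, COX6A1 and COX8A had means of only 41.3 to 201.4 reads per animal, while COX7B had 2846. The median within complex IV without its genes of few reads is not given here. COX7A2 with COX7B was the most negative pair, at r = -0.48.

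**Figure D5:**
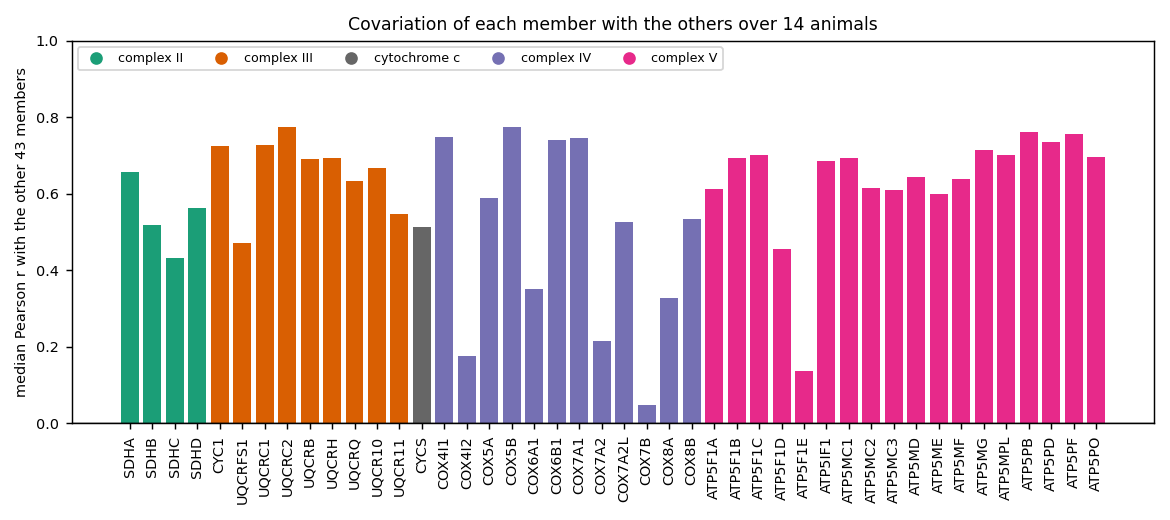
Median Pearson r of each of the 44 genes with the other 43 over 14 animals, coloured by complex. COX7B is lowest at 0.05, and COX4I2, COX7A2 and ATP5F1E lie below 0.25.

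The muscle forms kept closer to each other than to their general partners. COX7A1 with COX8B gave r = 0.78, while COX7A1 with COX7A2 gave 0.27 and COX8B with COX8A 0.34 (n = 14, described without a test). This closeness was not particular to the 2 muscle forms. Over the other 43 genes the median r was 0.745 for COX7A1 and 0.53 for COX8B. Each was closer still to a complex V gene, COX7A1 to ATP5PD (0.88) and COX8B to ATP5IF1 (0.82). The general forms have few reads, with 79 to 162 for COX7A2, 132 to 258 for COX8A and 118 to 204 for COX6A1 in an animal, and the part of depth in their weaker correlations was not tested.

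For 16 of the 44 genes the SD of log2 CPM lay under the median of tested genes of like level. SDHC and CYCS had the widest SDs relative to like genes, at percentiles 95 and 95.3. Only SDHC, CYCS and COX4I2 spanned 2-fold or more from the lowest to the highest animal.

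Outside the 46 genes, those that followed their mean most closely were mostly of complex I. Ranked among 6606 other genes with at least 10 CPM by r with the mean z-score of the 44 genes, the top 10 were NDUFB4 (0.96), NDUFA8 (0.93), NDUFA9 (0.93), SUCLG1 (0.93), the row ENSBTAG00000036111 without a symbol (0.91), NDUFB9 (0.91), MTFR1L (0.90), MGC148714 (0.90), NDUFC2 (0.89) and NDUFB6 (0.88). The median over the 6606 genes was 0.0008. The NDUF genes among these 10 encode complex I subunits, SUCLG1 a subunit of succinyl-CoA ligase in the citric acid cycle, and MGC148714 is described in the table as COX subunit 6C.

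The 5 relations tested between single measures did not pass after adjustment. The log2 ratio COX7A1 over COX7A2 against MYH7, the slow myosin, gave r = 0.52 (permutation p = 0.057, adjusted 0.285) and rho = 0.55 (permutation p = 0.046, adjusted 0.23). It rested on control animals 1 and 2, without which r was 0.18. Among animals whose title ends in A r was 0.68, and among those whose title starts with Y it was 0.05. COX8B over COX8A with MYH7 gave r = 0.21 (rho 0.24, permutation p = 0.473 and 0.403), and SDHB with MYH7 r = 0.09 (rho 0.27, permutation p = 0.777 and 0.350). CYCS with PPARGC1A, a coactivator of mitochondrial genes, gave r = 0.24 (rho 0.31, permutation p = 0.408 and 0.277), and COX4I2 with RGS5, a pericyte marker, r = 0.13 (rho 0.18, permutation p = 0.663 and 0.545). Adjusted p was 0.777 for each of these 4 by r and 0.503 to 0.545 by rho. Without the 2 animals farthest from the median of the second measure, r was 0.20, -0.13, 0.09 and 0.27.

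Genes that serve these complexes were counted from lists, and 0 in any list passed the adjusted threshold of edgeR's quasi-likelihood test. Of 12 regulators the ratio was above 1 for 8, and the most abundant, PERM1, a muscle regulator of oxidative genes, had 402.9 ± 35.1 and 430.5 ± 48.5 CPM in controls and restricted animals (SD, n = 7 each; ratio 1.07). PPARGC1A had 25.1 ± 4.36 and 23.7 ± 5.89 CPM (ratio 0.945). Assembly factors of complex II were above 1 for 3 of 4, of complex III for 3 of 5, of complex IV for 13 of 21 and of complex V for 1 of 4. At an unadjusted p under 0.05 there were 0 genes in the other lists of regulators and assembly factors and 2 in that of complex IV, named here after their values were seen: COX10, a heme A enzyme (ratio 1.17, 1.02 to 1.35), and PET100 (ratio 1.17, 1.01 to 1.36). Over all tested genes 4.25% had such a p and 49.7% were above 1. COX17, which brings copper to complex IV and was the most abundant of that list, had 150.5 ± 18.6 and 157.3 ± 14.3 CPM (ratio 1.05).

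For complex I, the entry point for NADH, 39 genes were taken by symbol, and 30 were above 1, with a median ratio of 1.06. They include NDUFA4 (ratio 1.07), described as mitochondrial complex associated, and NDUFA4L2 (ratio 1.23), so the list is wider than the subunits of complex I. The share above 1 over all tested genes was 49.7%. An unadjusted p under 0.05 was found for 2 of the 39, NDUFA10 and NDUFC1, which is near the 4.25% of all tested genes. The genes of this list followed the mean of the 44 genes with a median r of 0.71 (38 genes). Of the 7 carriers and channels that supply complex V, 6 were above 1, and the remaining one, SLC25A6, had a ratio of 0.807 (0.672 to 0.969) and an unadjusted p under 0.05. SLC25A4, the ADP/ATP carrier of muscle and the most abundant, had 1467 ± 203.7 and 1571 ± 194.6 CPM (SD, n = 7 each; ratio 1.07).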

How the data were processed

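The authors deposited whole-number read counts for each gene, without normalization, and a gene length in bases whose definition is not stated. Per the submitters' processing notes, FastQC, HISAT2, featureCounts, edgeR and the build ARS-UCD1.2 were used. Not given in the sources used here were their versions, the annotation, strandedness and the handling of multiply aligned reads. Reads of overlapping and antisense genes may therefore be mixed.

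The treatment label set the groups. Animals are numbered in sample order, which pairs nothing. The count table had 18078 rows, 17885 with reads, and 0 sample columns were left unused. Chi-square per degree of freedom was at least 12.8 between any 2 libraries, well above counting noise. In edgeR 4.0.16 (R 4.3.3), filterByExpr (minimum count 10, minimum total 15) kept 12187 rows, TMM set the scaling, and diets were compared by the quasi-likelihood F test with Benjamini-Hochberg adjustment, called at 0.05. A ratio is the fitted fold change of restricted against control. Log2 CPM used a prior count of 2. Isoform ratios were tested by exact permutation, and relations between measures by 100000 permutations, in Python 3.11.15 with scipy 1.17.1. The alternatives were other scalings, no filter, DESeq2 1.42.0, limma 3.58.1 (voom), title letters as covariates or subsets, another prior count, and animals left out.

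Depth was 13631018 to 17325779 counts. Tested on simulated data for 7 against 7 animals with 12076 genes, the edgeR test found 4.17% of 48 genes given a 1.2-fold change, 53.1% of 49 at 1.5-fold, 77.1% of 48 at 2-fold and 95.9% of 49 at 3-fold, and called 6 unchanged genes.

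The members and lists were chosen with earlier results of these data known. Genes named by rule were the isoforms of the COX4, COX6A, COX7A and COX8 pairs, in each complex the most abundant member and those with the smallest diet p and the largest and smallest SD, CYC1, CYCS, ATP5IF1, members below the filter, and the 10 most similar other genes. Other genes were named after their values were seen. UQCC2, COA4, COA8, TTN and the pair COX6A2/COX6A1 were not analysed here.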

Additional observations from a re-analysis of the deposited data

Results flagged for a closer look

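Each gene's log2 CPM and each complex's mean was checked for an animal far from the other 6 of its diet, that is, a gap to the nearest animal above 0.568 of the group's range (Dixon's criterion at 95%). Of 100 groups checked, 10 had such an animal, where chance gives about 1 in 20, or 5. Restricted animal 1 was the high one in 9 of the 10, and these are not independent, since the genes moved together. Its mean for complex III was 8.02 log2 CPM, with the other restricted animals between 7.58 and 7.76. For complex III genes its log2 CPM was 8.26 for CYC1, 8.69 for UQCRC1 and 8.40 for UQCRB. For complex II it was 9.37 for SDHA, with the others between 8.96 and 9.10. For complex V it was 10.88 for ATP5F1B, 8.41 for ATP5F1C, 7.59 for ATP5MC1 and 8.13 for ATP5PO. The remaining one was low: SDHC in control animal 4 had 7.15 log2 CPM, with the other controls between 8.20 and 8.60.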

How the results depend on the processing

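With 7 animals a side at these depths the 95% intervals of the 44 genes ran at the widest down to 0.716 (COX4I2) and up to 1.47 (CYCS), and were narrower for most genes, such as 0.870 to 1.07 for COX7B. The count of the 44 genes passing was 0 under all 22 alternatives, and over all genes it was 0 except 1 with DESeq2. The log2 fold change of ATP5MC3 stayed above 0 in all 22, at 0.13 to 0.25, with unadjusted p of 0.0270 to 0.157. The count of genes above 0 was 23 with library size alone and ran from 24 (without restricted animal 1) to 41 (without control animal 3) with single animals left out. Values near 0 changed sign. Library size alone also lowered the median log2 fold change over all tested genes, from -0.0008 to -0.05, and that of the 44 genes, from 0.05 to 0.0084. With library size alone the log2 fold change was -0.044 for SDHA, -0.036 for SDHC, -0.0055 for SDHD, -0.032 for CYC1, -0.052 for COX4I2, -0.019 for COX6A1, -0.042 for COX8A, -4.1e-05 for COX8B, -0.0040 for ATP5F1A, -0.047 for ATP5F1E and -0.019 for ATP5IF1. With voom it was -0.011 for SDHA, 0.0033 for UQCRFS1, -0.035 for COX4I2 and 0.023 for COX7A1. With the first title letter as a covariate it was 0.0013 for COX7A1 and -0.027 for ATP5F1E, with the last letter -0.00048 for SDHA, -0.017 for COX4I2 and 0.052 for COX7A1, and with no filter 0.0056 for COX7A1. Without control animal 7 and restricted animals 4 and 7, which earlier results placed farthest out, it was 0.037 for UQCRFS1, 0.056 for COX7A1 and -0.063 for COX8A, and the log2 difference of COX7A1/COX7A2 was 0.029. With titles starting in Y that of COX8B/COX8A was -0.013. With 1 animal left out the log2 fold change ran from -0.057 to 0.025 for SDHA, -0.079 to 0.010 for SDHB, -0.12 to 0.064 for SDHC, -0.059 to 0.039 for CYC1, -0.10 to 0.045 for UQCRFS1, 0.11 to 0.30 for CYCS, -0.017 to 0.087 for COX4I1, -0.16 to 0.10 for COX4I2, -0.025 to 0.075 for COX6A1, -0.070 to 0.068 for COX7A1, -0.042 to 0.063 for COX8A, -0.026 to 0.071 for ATP5F1A, -0.025 to 0.094 for ATP5F1B, -0.060 to 0.084 for ATP5F1E and -0.021 to 0.063 for ATP5IF1. The log2 isoform differences then ran from -0.13 to 0.022 (COX7A1/COX7A2) and -0.023 to 0.11 (COX8B/COX8A). The r of SDHB with MYH7 was -0.13 without the 2 farthest animals, -0.19 with titles in Y and -0.11 with titles ending in A, where CYCS with PPARGC1A gave -0.084. The cause of these changes was not tested. COX6A2/COX6A1 was not run. No paired analysis was possible because the labels give no number that ties animals across diets.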

Other observations

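Some rows outside the 46 genes carry the description of a complex IV subunit but another symbol or none. The row MGC148714, described as subunit 6C, had 172.1 ± 25.9 CPM in controls and 181.5 ± 12.2 CPM in restricted animals (SD, n = 7 each; ratio 1.05, 95% interval 0.925 to 1.2). The row ENSBTAG00000039555, described as subunit VIIc, had 147.0 ± 30.0 and 150.8 ± 24.2 CPM (SD, n = 7 each; ratio 1.03, 0.852 to 1.24). These levels are of the order of COX7B and COX8B. A further row described as subunit 8A, ENSBTAG00000004920, held 3 to 39 reads per animal, highest in control animal 2. Rows ENSBTAG00000039440 and ENSBTAG00000040564, described as subunit 7C, held 0 to 13 and 8 to 79 reads.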
